A study of Homo sapiens with 24 samples.

Results

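The genes described here are the cyclins, cyclin-dependent kinases (CDKs) and CDK inhibitors that carry cells from G1 into S phase: the D-type cyclins CCND1, CCND2 and CCND3, their kinases CDK4 and CDK6, the E-type cyclins CCNE1 and CCNE2 with their kinase CDK2, and the inhibitors CDKN1A (p21) and CDKN1B (p27). They were chosen by name as a gene family, with earlier results of these data known. Of the 10 genes, 9 had a row among the 14585 genes of the count table and all 9 were tested in both cell lines, while CCND2 is not analysed here. RNA was sequenced from A549 cells, a lung carcinoma line, and Huh7 cells, a hepatocellular carcinoma line, both labelled wild type. That label does not mean that these cancer lines carry no mutations. In each line, 3 libraries came from control cells and 3 from cells given an extract of Pulsatilla chinensis, Bupleurum chinense or Polyporus umbellatus, which makes 24 libraries. The extracts were prepared from powdered herbs in ethanol and are mixtures of many compounds. The dose and time of the sequenced cultures, the vehicle given to the control cells and whether the 3 replicates were separate cultures are not given in the sources used here, so p-values measure the spread between these libraries only.

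In a cell that enters the cycle, D-type cyclins bind CDK4 or CDK6 and start to phosphorylate the retinoblastoma protein RB1, which releases E2F transcription factors. E2F then drives the E-type cyclins, which activate CDK2 and carry the cell past the restriction point into DNA replication. CDKN1A and CDKN1B bind these complexes. CDKN1A rises after DNA damage, whereas CDKN1B is controlled mostly through protein degradation and rises in resting cells. As background on the line, A549 cells have lost the CDKN2A and CDKN2B locus.

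Promoter stretches of 3 members are printed from pairs of relatives whose changes ran in opposite directions in A549, CDKN1A and CDKN1B, and CCNE1 against CCNE2. That of CCND3, which moved against CCND1, held 5 GC boxes and is not printed. Each holds the 250 bases before a RefSeq transcript start on GRCh38.p14. Capitals mark GGGCGG, the GC box bound by Sp1, and CCAAT, the CCAAT box, searched on both strands, so that a GC box on the other strand reads CCGCCC.
CDKN1A, chr6:36678464-36678713, plus strand: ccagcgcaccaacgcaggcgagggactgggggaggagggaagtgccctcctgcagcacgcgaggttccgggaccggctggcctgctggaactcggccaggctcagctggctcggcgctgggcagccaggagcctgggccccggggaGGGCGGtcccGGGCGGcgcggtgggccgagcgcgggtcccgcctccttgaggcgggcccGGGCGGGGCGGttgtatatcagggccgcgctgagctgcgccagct
CDKN1B, chr12:12717118-12717367, plus strand: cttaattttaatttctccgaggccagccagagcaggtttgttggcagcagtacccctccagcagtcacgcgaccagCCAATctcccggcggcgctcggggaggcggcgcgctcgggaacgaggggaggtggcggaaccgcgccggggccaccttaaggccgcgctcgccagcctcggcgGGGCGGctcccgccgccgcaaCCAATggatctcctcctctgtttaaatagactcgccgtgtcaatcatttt
CCNE1, chr19:29811741-29811990, plus strand: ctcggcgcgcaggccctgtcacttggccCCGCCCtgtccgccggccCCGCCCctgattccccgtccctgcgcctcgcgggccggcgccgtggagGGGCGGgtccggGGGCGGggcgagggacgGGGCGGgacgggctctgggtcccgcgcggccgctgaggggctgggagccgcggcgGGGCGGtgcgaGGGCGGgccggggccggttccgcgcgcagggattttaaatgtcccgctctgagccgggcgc
The CDKN1A stretch held 4 GC boxes, of which the last pair overlap by 1 base, and the CCNE1 stretch held 7. The CDKN1B stretch held 1 GC box and 2 CCAAT boxes. Among the 6 members with a RefSeq promoter entry, 6 held a GC box, against 42.6% of 35116 promoter windows of this length, and 1 held CCAAT, against 32.0%. None held TTTGGCGC, TTTCGCGC, TTTCCCGC or TTTGCCGC, 4 forms of the E2F motif that were present in 2.79% of the windows.

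Library totals ran from 6803648 to 24345364 estimated counts with a median of 10515131. Keratin KRT7 and albumin ALB followed the labels. KRT7 was at 1553 to 1773 CPM (counts scaled to the size of the library) in A549 and at most 0.123 CPM in Huh7. ALB was at 2751 to 4879 CPM in Huh7 and at most 0.714 CPM in A549. Other markers, KRT8, KRT18, AKR1C1 and HNF4A, were present in both lines. KRT8 was at 3305 to 3852 CPM in A549 and 1342 to 3673 CPM in Huh7. HNF4A was at 44.8 to 123.5 CPM in A549 and 287.6 to 541.7 CPM in Huh7. Of 5 alveolar type 2 markers only SFTPB had a row, at 1.05 to 2.76 CPM in A549 and 2.12 to 5.16 CPM in Huh7. The other markers of that cell type had no row and could not be judged here. Of 7 markers of leukocytes, fibroblasts and endothelium, 5 had a row, and all 5 stayed at or below 13.2 CPM (COL1A2 in Huh7) except PECAM1, which was at 31.9 to 55.9 CPM in Huh7. One library stood apart, replicate 2 of Huh7 with P. umbellatus. It differed from the other 2 libraries of its group with a median chi-square of 18.1 and 24.5 times the sampling noise. Pairs of replicates in the other groups ran from 2.75 to 4.74, and the remaining pair of its own group was at 6.22. In Huh7 with P. umbellatus the change also followed the GC content of the transcripts: the median log2 fold change was 0.34 in the fifth of genes poorest in GC and -0.61 in the fifth richest in GC, whereas in the other 5 herb comparisons these medians lay between -0.06 and 0.08. Values without that library, and values corrected for GC content and length, are therefore given beside the P. umbellatus results in Huh7. In bulk RNA, fewer cells in a phase of the cycle and less RNA per cell cannot be told apart.

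In untreated cells the lines differed most in CCND3 and CDKN1A. Levels per kilobase of transcript put CCND3 first in A549 (206.9 ± 9.89 CPM per kb, mean ± SD, n = 3), followed by CCND1 (130.1 ± 6.73) and CDK4 (68.2 ± 2.17), and CCNE2 last (4.90 ± 0.64). In Huh7, CDK4 came first (108.2 ± 4.12), then CCND1 (98.9 ± 2.89) and CDK2 (42.3 ± 0.30), with CCND3 at 8.80 ± 0.64. The library ranges of neighbours in this order overlapped for CDKN1A and CDK2 in A549, for CDK6 and CDKN1B in Huh7, and for the last 4 genes in Huh7, CCND3, CCNE1, CDKN1A and CCNE2. Between the control cells, 8 of 9 members differed by the edgeR quasi-likelihood test (adjusted p below 0.05), in a comparison where 68.7% of 12924 genes did. CCND3 was higher in A549 by 4.57 (SE 0.11, adjusted p = 1.79e-19) on the log2 scale, a 23.7-fold difference, and CDKN1A by 2.62 (SE 0.13, adjusted p = 2.65e-14). CCNE1 and CCND1 were also higher in A549, by 0.52 and 0.42, while CDK4, CDK6, CDKN1B and CDK2 were lower, with differences from -0.64 to -0.37. For CCNE2 the difference was -0.02 (95% interval -0.40 to 0.36).

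**Figure D1:**
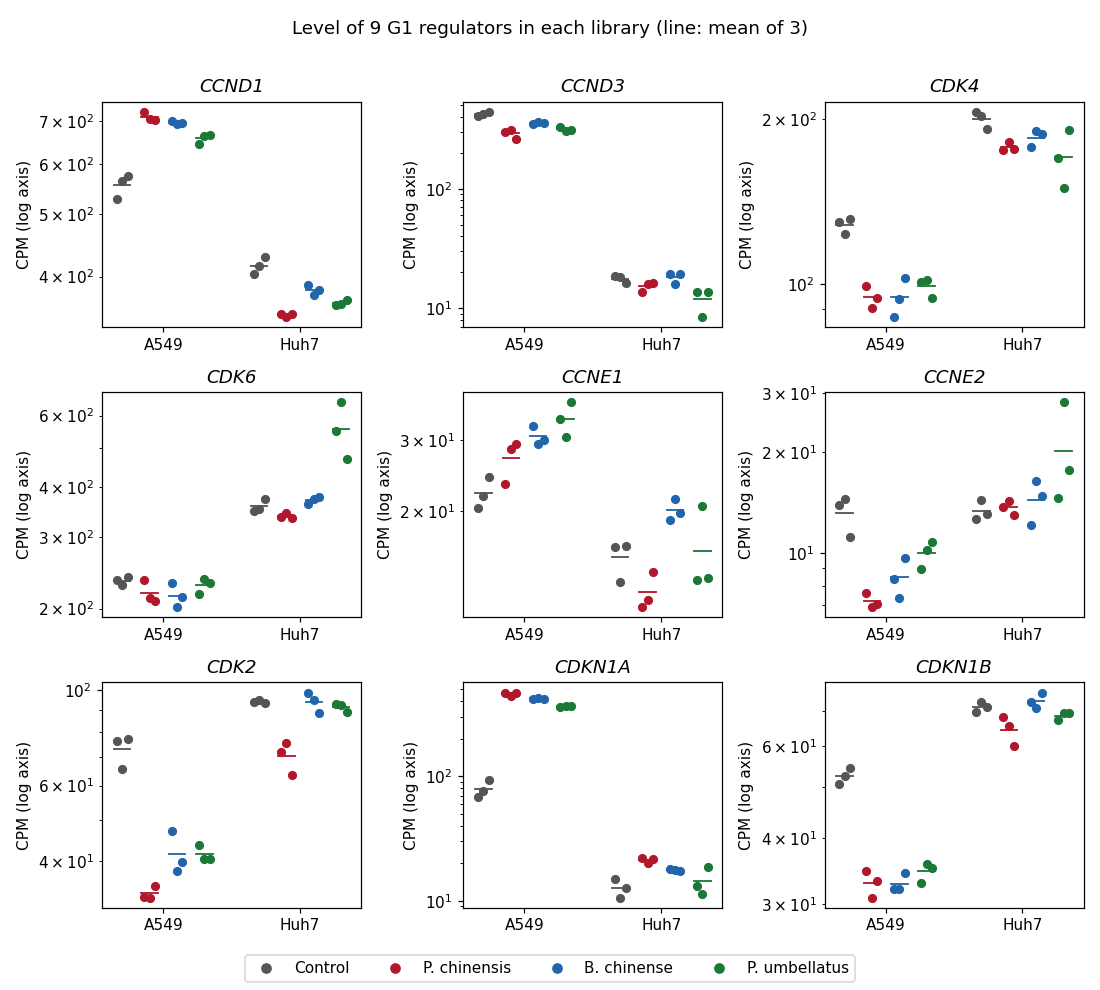
Level of each of the 9 genes in each of the 24 libraries, in CPM on a log axis, with 1 point per library and a short line at the mean of each group of 3. The CDKN1A points of the herb-treated A549 libraries, from 359.5 to 471 CPM, lie far above the A549 controls at 68.7 to 93.1 CPM, and CDK2 and CDKN1B lie below theirs.

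In A549 cells each herb moved most of the set, and in the same pattern: CDKN1A rose about 5-fold, CCND1 rose slightly, and CDK2, CDKN1B, CDK4 and CCND3 fell. With P. chinensis 2 of 9 members rose and 5 fell, while 15.8% of the 13633 genes tested rose and 17.1% fell. B. chinense raised 3 and lowered 5 members, against 13.1% and 15.0% of all genes, and P. umbellatus raised 3 and lowered 4, against 13.4% and 14.8%. The median log2 fold change of the 9 members was -0.44, -0.25 and -0.37 for the 3 herbs in that order, beside 0.01, -0.0018 and -0.01 over all genes tested. The 3 comparisons share their control libraries, so they do not count as independent of each other. All 22 of these calls passed under each of the 22 other settings tried, including every fit with 1 library left out.

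The Huh7 response was smaller and differed from herb to herb. With P. chinensis 1 of 9 members rose and 2 fell, where 10.5% of 13875 genes rose and 10.5% fell. With B. chinense 0 of 9 passed in either direction, in a comparison where 0.519% of genes rose and 0.757% fell. At an unadjusted p below 0.05, 3 of the 9 did (CCND1, CCNE1 and CDKN1A), as did 12.3% of all genes tested, and DESeq2 called 0 members after adjustment. With P. umbellatus 2 rose and 3 fell, where 19.3% of genes rose and 17.8% fell. Without replicate 2 the members were 1 up and 1 down, where 2309 of the 13875 genes rose and 2252 fell. With the GC and length correction the members were 2 up and 1 down, where 1577 genes rose and 1126 fell. The members' median log2 fold changes were -0.17, 0.05 and -0.04, beside 0.01, -0.00010 and 0.03 over all genes.

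**Figure D2:**
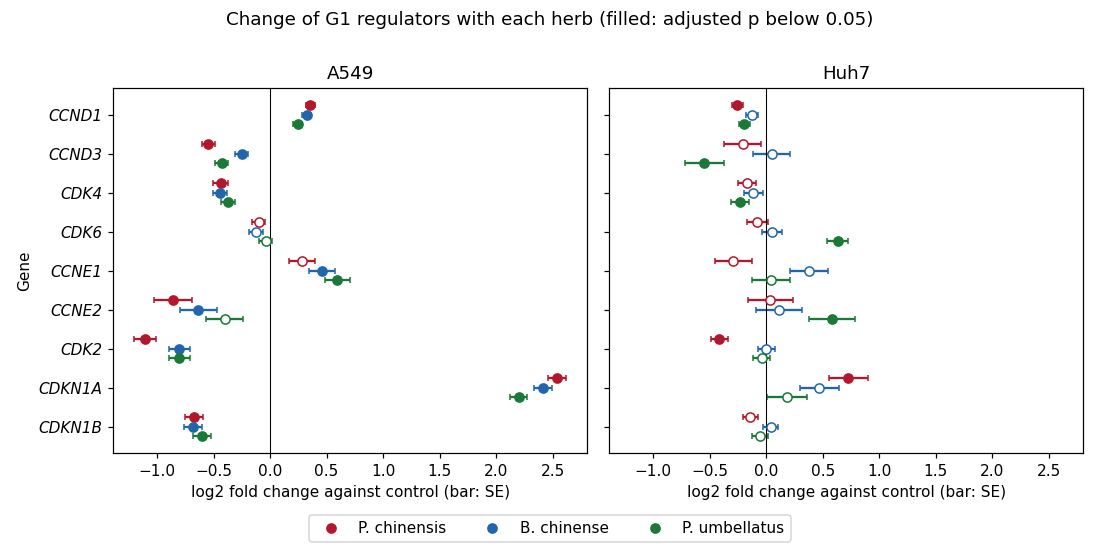
Log2 fold change of each gene against the control cells of the same line for the 3 herbs, with bars of 1 SE, and filled points where the adjusted p was below 0.05. In A549 the herbs lie on the same side of 0 for each gene that passed, with CDKN1A at 2.20 to 2.54 and CCNE2 spread from -0.86 to -0.40, while the Huh7 points stay between -0.55 and 0.73.

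The inhibitor CDKN1A gave the strongest change. In A549 it stood at 68.7, 75.5 and 93.05 CPM in the 3 control libraries, 471, 443 and 471 CPM with P. chinensis, 419.9, 429 and 421 CPM with B. chinense and 359.5, 366 and 371 CPM with P. umbellatus. Every treated library lay above every control library, and the herbs themselves were ordered with P. chinensis highest and P. umbellatus lowest. The log2 fold changes were 2.54 (SE 0.08, adjusted p = 5.51e-11) with P. chinensis, 2.41 (SE 0.08, adjusted p = 2.71e-10) with B. chinense and 2.20 (SE 0.08, adjusted p = 8.73e-10) under P. umbellatus, which correspond to 5.81-, 5.33- and 4.59-fold. Compared directly, P. chinensis exceeded P. umbellatus by 0.34 (SE 0.07, adjusted p = 0.0227), a call lost in 5 of 12 fits with 1 library left out, with adjusted p up to 0.0939. From B. chinense it differed by 0.12 (95% interval -0.03 to 0.28), which did not pass.

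In Huh7 the CDKN1A level was low throughout. It stood at 15.00, 10.6 and 12.6 CPM in the 3 control libraries, 21.9, 20.03 and 21.7 CPM with P. chinensis, 18.1, 17.6 and 17.3 CPM with B. chinense and 13.2, 11.4 and 18.6 CPM with P. umbellatus. The P. chinensis and B. chinense libraries lay above all 3 controls, and those with P. umbellatus overlapped them. P. chinensis raised the gene by 0.73 (SE 0.17, adjusted p = 0.0088) on the log2 scale, and without control replicate 2, the lowest control, the change was 0.60 with an adjusted p of 0.0541. The change was 0.47 (SE 0.17, adjusted p = 0.266) with B. chinense and 0.18 (SE 0.18, adjusted p = 0.43) under P. umbellatus, neither of which passed. After correction for GC content and length they were 0.50 (adjusted p = 0.0473) and 0.59 (adjusted p = 0.0106), so that both passed there. In those corrected fits 317 of 13875 genes rose with B. chinense, from 72, and 1577 with P. umbellatus, from 2674. The direct difference between P. chinensis and P. umbellatus in Huh7, 0.54 (SE 0.17, adjusted p = 0.0287), was 0.09 (adjusted p = 0.68) with that correction and was lost in 5 of 12 fits with 1 library left out.

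CDKN1B, the close relative of CDKN1A, went the other way in A549. Its levels there were 50.7, 52.6 and 54.4 CPM in the 3 control libraries, 34.6, 30.9 and 33.2 CPM with P. chinensis, 31.98, 32.1 and 34.4 CPM with B. chinense and 32.8, 35.8 and 35.2 CPM with P. umbellatus. All 9 treated libraries lay below all 3 controls, with no order among the herbs. CDKN1B fell by 0.67 on the log2 scale with P. chinensis (SE 0.08, adjusted p = 1.09e-05), by 0.68 with B. chinense (adjusted p = 1.67e-05) and by 0.60 with P. umbellatus (adjusted p = 3.86e-05). In Huh7 it was at 69.6, 72.6 and 71.2 CPM in the 3 control libraries, 67.96, 65.3 and 59.99 CPM with P. chinensis, 72.7, 70.7 and 75.7 CPM with B. chinense and 67.04, 69.1 and 69.4 CPM with P. umbellatus, and the log2 fold changes of -0.14, 0.04 and -0.05 did not pass. The P. chinensis and the P. umbellatus libraries in Huh7 lay below the controls, and with the GC and length correction the change with P. chinensis passed (-0.25, adjusted p = 0.00222). With that correction 2872 of 13875 genes fell with P. chinensis, from 1451 without it.

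The ratio of CDKN1A to CDKN1B, taken per kilobase within each library, shows how far the balance of these inhibitors moved. In A549 it was 1.71 ± 0.213 (mean ± SD, n = 3) in control cells, 15.99 ± 0.448 with P. chinensis, 14.7 ± 0.663 with B. chinense and 12.03 ± 0.424 under P. umbellatus. In Huh7, CDKN1B stayed the more abundant in every library: the ratio was 0.204 ± 0.0396 in controls, 0.376 ± 0.0325, 0.276 ± 0.0137 and 0.239 ± 0.0607 with the herbs in the same order. With 3 libraries against 3, the two-sided exact permutation test cannot give a p below 0.1. It gave that value for each of the 3 herbs in A549 and for P. chinensis and B. chinense in Huh7. After Benjamini-Hochberg adjustment over 30 such tests this was 0.125. With P. umbellatus in Huh7 the same test gave 0.5 (0.536 adjusted). At its lowest value the test cannot rank these changes or tell the lines apart.

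CDK2, the kinase of the E-type cyclins, fell in A549 with every herb. The levels were 76.1, 65.4 and 77.1 CPM in the 3 control libraries, 33.01, 32.97 and 35.2 CPM with P. chinensis, 46.98, 37.9 and 39.9 CPM with B. chinense and 43.8, 40.5 and 40.5 CPM with P. umbellatus. The treated libraries were all below the controls and those with P. chinensis were the lowest. The log2 fold changes were -1.11 (SE 0.09, adjusted p = 4.62e-07), -0.80 (SE 0.09, adjusted p = 1.66e-05) and -0.80 (SE 0.09, adjusted p = 1.39e-05) for P. chinensis, B. chinense and P. umbellatus. The direct differences of P. chinensis from B. chinense (-0.30 (SE 0.10, adjusted p = 0.143)) and from P. umbellatus (-0.30 (SE 0.09, adjusted p = 0.11)) did not pass.

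In Huh7, CDK2 fell with P. chinensis only among the 3 herbs. Its levels were 94.1, 94.6 and 93.5 CPM in the 3 control libraries, 71.9, 75.5 and 63.6 CPM with P. chinensis, 98.7, 95.1 and 88.5 CPM with B. chinense and 92.9, 92.3 and 89.1 CPM with P. umbellatus. The P. chinensis libraries lay below all the others of that line. Those with P. umbellatus lay just below the controls, and those with B. chinense overlapped them. The change was -0.42 (SE 0.07, adjusted p = 0.00183) with P. chinensis, against -0.00017 (95% interval -0.16 to 0.16) with B. chinense and -0.04 (95% interval -0.20 to 0.12) under P. umbellatus. The difference was itself tested: P. chinensis was below B. chinense by -0.42 (SE 0.08, adjusted p = 0.00548) and below P. umbellatus by -0.38 (SE 0.08, adjusted p = 0.00307).

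The E-type cyclins moved apart in A549. CCNE1 stood at 20.4, 21.8 and 24.3 CPM in the 3 control libraries, 23.4, 28.5 and 29.2 CPM with P. chinensis, 32.4, 29.3 and 29.96 CPM with B. chinense and 33.7, 30.5 and 37.1 CPM with P. umbellatus. Libraries with B. chinense and P. umbellatus all lay above the controls, and P. chinensis overlapped them through replicate 1. CCNE1 rose by 0.46 (SE 0.11, adjusted p = 0.00781) with B. chinense and 0.60 (SE 0.11, adjusted p = 0.00106) under P. umbellatus, and changed by 0.28 (SE 0.11, adjusted p = 0.0701) with P. chinensis, which did not pass. CCNE2 stood at 13.9, 14.5 and 11.2 CPM in the 3 control libraries, 7.61, 6.89 and 7.03 CPM with P. chinensis, 8.38, 7.34 and 9.65 CPM with B. chinense and 8.93, 10.2 and 10.8 CPM with P. umbellatus. These were 65 to 151 counts in a library, the lowest counts of the set in A549. All treated libraries lay below all controls. CCNE2 changed by -0.86 (SE 0.17, adjusted p = 0.000973) with P. chinensis and -0.63 (SE 0.17, adjusted p = 0.0099) with B. chinense, and by -0.40 (SE 0.16, adjusted p = 0.0791) with P. umbellatus, where it did not pass. The ratio of CCNE1 to CCNE2 per kilobase was 2.35 ± 0.542 in A549 controls and 5.18 ± 0.843, 4.999 ± 0.653 and 4.65 ± 0.544 for P. chinensis, B. chinense and P. umbellatus.

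The E-type cyclins in Huh7 gave no common pattern. CCNE1 was at 16.4, 13.4 and 16.4 CPM in the 3 control libraries, 11.6, 12.1 and 14.2 CPM with P. chinensis, 19.1, 21.4 and 19.9 CPM with B. chinense and 13.6, 20.6 and 13.7 CPM with P. umbellatus. The B. chinense libraries were above the controls and the P. chinensis libraries overlapped them at the low end. Against control the changes of -0.29 (SE 0.16, adjusted p = 0.24), 0.38 (SE 0.16, adjusted p = 0.364) and 0.04 (SE 0.17, adjusted p = 0.874) did not pass, but P. chinensis was below B. chinense by -0.67 (SE 0.17, adjusted p = 0.027), a call lost in 6 of 12 fits with 1 library left out (adjusted p up to 0.0996). CCNE2 was at 12.6, 14.4 and 13.1 CPM in the 3 control libraries, 13.8, 14.3 and 12.96 CPM with P. chinensis, 12.1, 16.4 and 14.8 CPM with B. chinense and 14.7, 28.2 and 17.8 CPM with P. umbellatus. Replicate 2 with P. umbellatus was the highest of all. Its rise with P. umbellatus, 0.58 (SE 0.20, adjusted p = 0.0398), was lost without that library (0.28, adjusted p = 0.165), with the GC and length correction (0.21, adjusted p = 0.348) and in 10 of 12 fits with 1 library left out. The changes with P. chinensis (0.03, 95% interval -0.40 to 0.47) and B. chinense (0.11, 95% interval -0.33 to 0.55) did not pass.

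**Figure D3:**
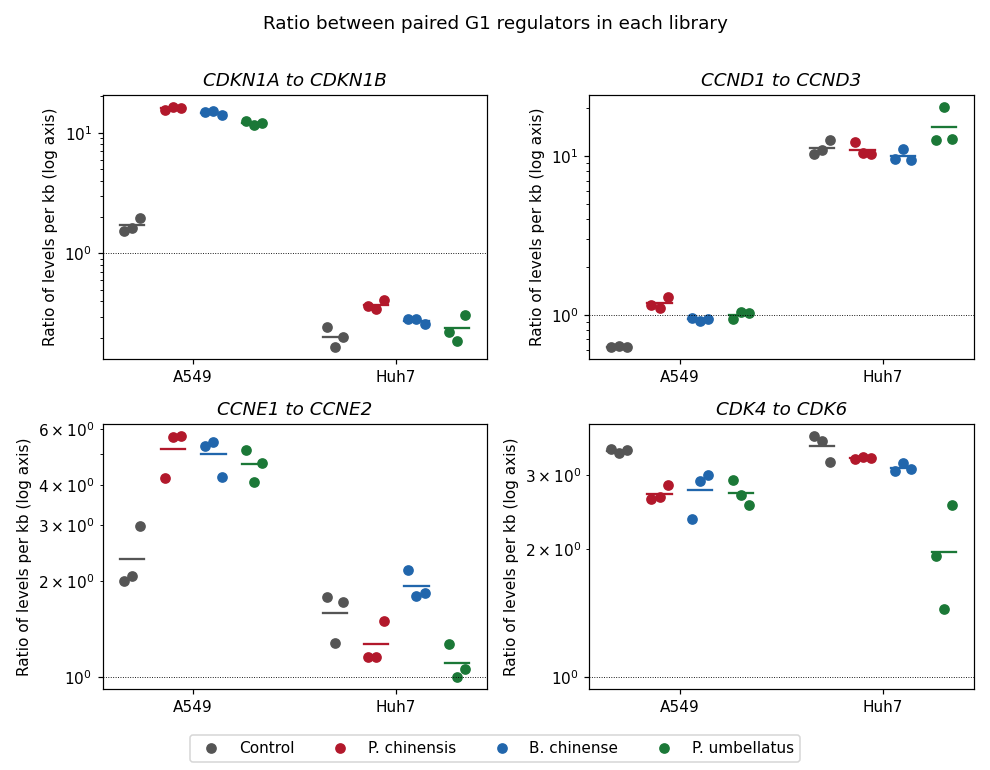
Ratio of the levels per kilobase of paired regulators in each library on log axes, with 1 point per library, a line at each group mean, and a dotted line at equal levels. In A549 every herb-treated library lies above the controls for CDKN1A to CDKN1B, CCND1 to CCND3 and CCNE1 to CCNE2, and below them for CDK4 to CDK6.

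Among the D-type cyclins, which couple growth signals to the cycle, CCND1 and CCND3 moved in opposite directions in A549. CCND1 stood at 528, 565 and 573 CPM in the 3 control libraries, 723, 705 and 703 CPM with P. chinensis, 699, 691 and 695 CPM with B. chinense and 644, 663 and 665 CPM with P. umbellatus. All treated libraries lay above all controls, with those of P. umbellatus below the other herbs. The rises were small next to that of CDKN1A: 0.35 (SE 0.04, adjusted p = 6.75e-06), 0.32 (SE 0.04, adjusted p = 2.47e-05) and 0.24 (SE 0.04, adjusted p = 0.000284) for P. chinensis, B. chinense and P. umbellatus. CCND3 stood at 406, 422 and 439 CPM in the 3 control libraries, 299, 308 and 262 CPM with P. chinensis, 349.7, 360.2 and 354 CPM with B. chinense and 328, 304 and 309.9 CPM with P. umbellatus. All treated libraries lay below all controls. CCND3 changed by -0.54 (SE 0.06, adjusted p = 4.65e-06), -0.25 (SE 0.06, adjusted p = 0.00422) and -0.43 (SE 0.06, adjusted p = 6.04e-05), falling with each herb. It was lower with P. chinensis than with B. chinense by -0.29 (SE 0.06, adjusted p = 0.0235), the only member to differ between these herbs, in a comparison where 1.45% of genes did, and this call was lost in 4 of 12 fits with 1 library left out (adjusted p up to 0.0865) and with the 6 libraries alone (adjusted p = 0.0787). The ratio of CCND1 to CCND3 per kilobase went from 0.629 ± 0.00992 in control cells to 1.18 ± 0.0966, 0.938 ± 0.0190 and 1.003 ± 0.0548.

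In Huh7, CCND1 moved the other way. Its levels were 404, 416 and 428 CPM in the 3 control libraries, 350.0, 346 and 349 CPM with P. chinensis, 388, 375 and 382 CPM with B. chinense and 361, 362 and 368 CPM with P. umbellatus. All treated libraries lay below all controls. The changes were -0.26 (SE 0.05, adjusted p = 0.00358) with P. chinensis and -0.19 (SE 0.05, adjusted p = 0.0123) with P. umbellatus, and -0.12 (SE 0.05, adjusted p = 0.327) with B. chinense, which did not pass. The P. umbellatus call held with the GC and length correction (-0.17, adjusted p = 0.0163) and without replicate 2 (-0.19, adjusted p = 0.00369). It was lost with the 6 libraries compared alone (adjusted p = 0.0807) and without control replicate 3 (adjusted p = 0.0583). CCND3 was low in this line compared with A549, at 18.7, 18.1 and 16.3 CPM in the 3 control libraries, 13.7, 15.9 and 16.3 CPM with P. chinensis, 19.5, 16.1 and 19.2 CPM with B. chinense and 13.7, 8.50 and 13.7 CPM with P. umbellatus. Replicate 2 with P. umbellatus was the lowest, at 59 counts. Its fall with P. umbellatus, -0.55 (SE 0.17, adjusted p = 0.0255), was lost without that library (-0.36, adjusted p = 0.0527) and became 0.0093 (adjusted p = 0.968) with the correction for GC content, which is 60.0% in its transcript. With P. chinensis and B. chinense the changes of -0.21 (95% interval -0.56 to 0.15) and 0.05 (95% interval -0.31 to 0.41) did not pass.

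The kinases of the D-type cyclins differed from each other. In A549, CDK4 was at 129.7, 123 and 131 CPM in the 3 control libraries, 99.2, 90.4 and 94.3 CPM with P. chinensis, 87.1, 93.8 and 103 CPM with B. chinense and 101, 102 and 94.4 CPM with P. umbellatus. Each treated library was below each control. CDK4 changed by -0.44 (SE 0.06, adjusted p = 9.9e-05), -0.44 (SE 0.06, adjusted p = 0.000137) and -0.37 (SE 0.06, adjusted p = 0.000514) for P. chinensis, B. chinense and P. umbellatus. CDK6 in A549 ran from 202 to 239.8 CPM over the 12 libraries and was the only member that passed with no herb there. Its changes were -0.10 (95% interval -0.23 to 0.03), -0.12 (95% interval -0.25 to 0.01) and -0.04 (95% interval -0.17 to 0.09). The ratio of CDK4 to CDK6 per kilobase was 3.42 ± 0.0329 in control cells and 2.71 ± 0.106, 2.76 ± 0.347 and 2.71 ± 0.183 with the herbs.

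In Huh7, CDK6 rose with P. umbellatus. Its levels were 349, 352 and 374 CPM in the 3 control libraries, 337, 345 and 335 CPM with P. chinensis, 363, 372 and 378 CPM with B. chinense and 550.0, 648 and 469.8 CPM with P. umbellatus. The P. umbellatus libraries lay above all the others, with replicate 2 the highest. The change was 0.63 (SE 0.09, adjusted p = 0.000965), and it passed at 0.51 without replicate 2 (adjusted p = 0.00012) and at 0.33 with the GC and length correction (adjusted p = 0.000275). With P. chinensis and B. chinense the changes were -0.08 (95% interval -0.28 to 0.12) and 0.05 (95% interval -0.15 to 0.25), and P. chinensis was below P. umbellatus by -0.71 (SE 0.09, adjusted p = 0.000372). CDK4 in Huh7 was at 206, 203 and 192 CPM in the 3 control libraries, 176, 182 and 177 CPM with P. chinensis, 178, 190.1 and 188 CPM with B. chinense and 170.0, 150.0 and 191 CPM with P. umbellatus. Libraries with P. chinensis and B. chinense lay below all controls, and P. umbellatus did so with a wider spread. The change with P. umbellatus, -0.23 (SE 0.08, adjusted p = 0.0418), was lost without replicate 2 (-0.15, adjusted p = 0.072), with the GC and length correction (-0.07, adjusted p = 0.313) and with the replicate block (adjusted p = 0.0583). It was -0.17 (SE 0.08, adjusted p = 0.169) with P. chinensis and -0.11 (SE 0.08, adjusted p = 0.661) with B. chinense, which did not pass.

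**Figure D4:**
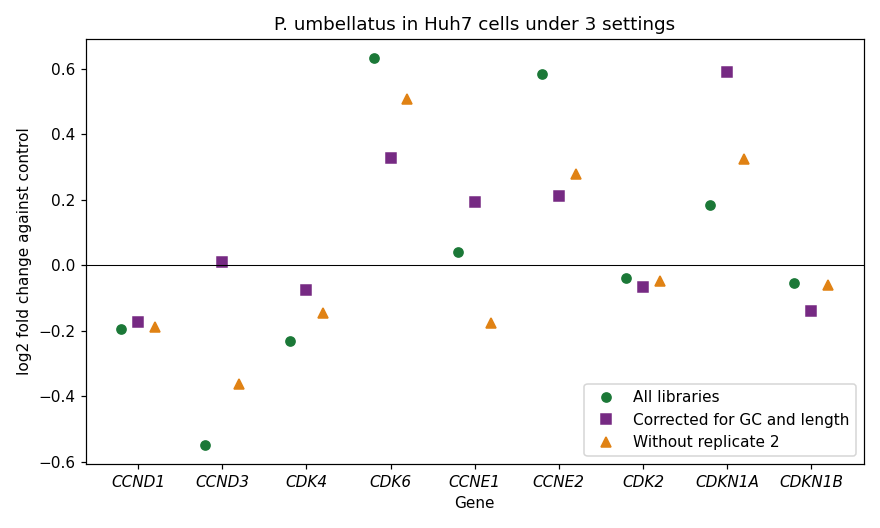
Log2 fold change of the 9 genes with P. umbellatus in Huh7 cells, with all libraries, with a correction for GC content and length, and without replicate 2. CDK6 stays above 0 (0.63, 0.33 and 0.51) and CCND1 below 0, while CCND3 moves from -0.55 to 0.0093 and CDKN1A from 0.18 to 0.59 with the correction.

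The herbs were compared directly within each line as P. chinensis minus the other herb. In A549, 1 of 9 members differed from B. chinense (CCND3, above) and 1 from P. umbellatus (CDKN1A, above), the latter in a comparison where 3.01% of genes did. The differences ranged from -0.30 to 0.12 for B. chinense and from -0.46 to 0.34 for P. umbellatus. In Huh7, 2 of 9 differed from B. chinense (CCNE1 and CDK2), where 7.81% of genes did, and 3 from P. umbellatus (CDK6, CDK2 and CDKN1A), where 35.4% did. The Huh7 differences ranged from -0.67 to 0.26 and from -0.71 to 0.54.

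Whether the lines responded differently was tested with an interaction term over all 24 libraries, coded as the response of A549 minus that of Huh7. For P. chinensis 6 of 9 members passed (19.6% of 12924 genes did), for B. chinense 4 (11.6%) and for P. umbellatus 7 (34.4%). CDKN1A responded more in A549 by 1.87 (SE 0.17, adjusted p = 6.75e-08) with P. chinensis, 1.99 (SE 0.18, adjusted p = 2.29e-07) with B. chinense and 2.09 (SE 0.18, adjusted p = 7.51e-08) under P. umbellatus. CCND1, which rose in A549, differed by 0.66 (SE 0.06, adjusted p = 5.63e-08), 0.49 (SE 0.06, adjusted p = 1.07e-05) and 0.52 (SE 0.06, adjusted p = 2.19e-06). CDK2 differed by -0.64 (SE 0.12, adjusted p = 0.000366), -0.76 (SE 0.12, adjusted p = 0.000117) and -0.68 (SE 0.12, adjusted p = 0.000164), and CDKN1B by -0.48 (SE 0.09, adjusted p = 0.000693), -0.68 (SE 0.09, adjusted p = 3.94e-05) and -0.47 (SE 0.09, adjusted p = 0.000701), both lower in the A549 response. These 4 genes passed with all 3 herbs. CCNE1 passed with P. chinensis and P. umbellatus, at 0.63 and 0.64, and lost the call in 8 and 4 of 24 fits with 1 library left out. CCNE2 passed with the same herbs, at -0.85 and -0.90. The first was lost in 4 of 24 fits with 1 library left out (adjusted p up to 0.0622). The second became -0.42 (adjusted p = 0.162) with the GC and length correction. CDK6 passed with P. umbellatus, at -0.59. CCND3 and CDK4 passed with no herb, but calls appeared with the GC and length correction. CCND3 then stood at -0.34 (adjusted p = 0.0154), -0.38 (adjusted p = 0.0122) and -0.42 (adjusted p = 0.00938) for P. chinensis, B. chinense and P. umbellatus, the last from 0.19 before the correction. CDK4 stood at -0.33 (adjusted p = 0.00539) for B. chinense and -0.23 (adjusted p = 0.0358) for P. umbellatus. With the correction, genes that passed below 0 went from 1202 to 1552 of 12924 for P. chinensis. They went from 749 to 1228 for B. chinense and from 1980 to 1598 for P. umbellatus. Without replicate 2 of Huh7 given P. umbellatus, CCND3 and CDK4 passed for P. chinensis (adjusted p = 0.0316 and 0.0211) and CDK4 for B. chinense (adjusted p = 0.0114). There, all genes below 0 went from 1202 to 1898 for P. chinensis and from 749 to 1248 for B. chinense.

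The wider G1 pathway was read from a list of 38 genes around these members, of which 37 had a row and 34 were tested in A549. With P. chinensis in A549, 3 rose and 15 fell, with B. chinense 1 rose and 17 fell, and with P. umbellatus 1 rose and 16 fell, beside 15.8% and 17.1%, 13.1% and 15.0%, and 13.4% and 14.8% of all genes. The list medians were -0.17, -0.29 and -0.27 on the log2 scale. MDM2, a ubiquitin ligase, showed the largest rise with each herb: 1.97 (SE 0.06, adjusted p = 5.51e-11), 1.60 (SE 0.06, adjusted p = 4.54e-10) and 1.41 (SE 0.06, adjusted p = 1.89e-09) in that order. With P. chinensis the second was FBXW7, the receptor that marks cyclin E for degradation, at 0.46 (SE 0.12, adjusted p = 0.00915). E2F2, an E2F activator, showed the largest fall with each herb, at -1.99, -1.27 and -1.50 (adjusted p = 4.55e-07, 4.29e-05 and 8.57e-06). The next was DTL, the receptor that sends CDKN1A protein to degradation in S phase, with P. chinensis (-1.62 (SE 0.10, adjusted p = 3.13e-08)), the S-phase cyclin CCNA2 with B. chinense (-1.20 (SE 0.08, adjusted p = 7.02e-08)) and the mitotic kinase CDK1 with P. umbellatus (-1.20 (SE 0.08, adjusted p = 5.77e-08)).

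By group, the late cyclins and their kinase fell in A549: CCNA2, CCNB1 and CDK1 passed with every herb and CCNA1 is not analysed here, with a median of the 3 tested of -1.55, -1.19 and -1.14. Of 5 E2F factors and partners, E2F1, E2F2 and TFDP1 fell with each herb, while E2F3 and TFDP2 did not pass. Among the 3 pocket proteins RBL1 fell with each herb and RB1 and RBL2 did not pass. The CDK-activating phosphatase CDC25A fell with each herb, at -1.23, -0.81 and -0.79, and CCNH, a subunit of the CDK-activating kinase, fell with B. chinense and P. umbellatus. Of the other CDK inhibitors, CDKN2C and the phosphatase CDKN3 fell with each herb, with CDKN3 at -1.42, -1.05 and -0.96. CDKN2A and CDKN2B could not be tested in A549, where CDKN2B had 0 counts in all 12 libraries and CDKN2A at most 2. In the degradation machinery SKP2, which targets CDKN1B, and its cofactor CKS1B fell with each herb, with SKP2 at -0.61, -0.48 and -0.44.

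**Figure D5:**
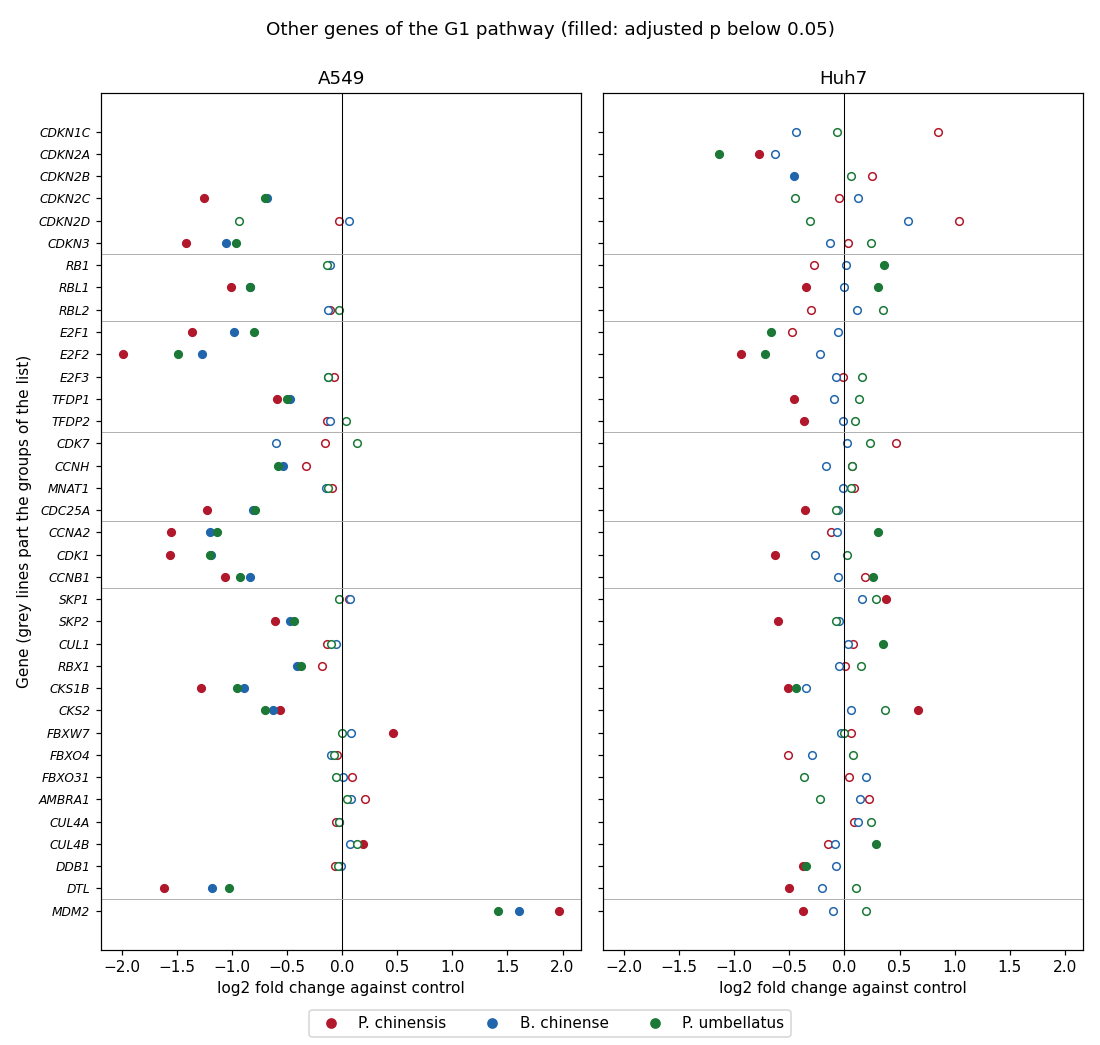
Log2 fold change of the other listed G1 genes, except 1 that is not reported here, against control for the 3 herbs in both lines, with filled points where the adjusted p was below 0.05 and grey lines between the groups of the list. In A549 the points of CCNA2, CDK1, E2F2 and DTL lie left of -1 for all 3 herbs and MDM2 lies right of 1, while in Huh7 MDM2 stays between -0.38 and 0.20.

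In Huh7, 37 genes of the list were tested and fewer moved. With P. chinensis 2 rose and 12 fell (median -0.05), with B. chinense 0 and 1 (median -0.05), and with P. umbellatus 6 and 5 (median 0.08), beside 10.5% and 10.5%, 0.519% and 0.757%, and 19.3% and 17.8% of all genes. With 1 library left out, the rises with P. chinensis ranged from 1 (without P. chinensis replicate 1) to 7 (without P. umbellatus replicate 2). Without that P. umbellatus library, genes up with P. chinensis over all 13875 also went from 1450 to 2309. Genes down went from 1451 to 2536. The listed rises with P. umbellatus ranged from 1 (without control replicate 1) to 11 (without P. umbellatus replicate 1). The largest rises with P. chinensis were CKS2, a small CDK-binding protein (0.67 (SE 0.15, adjusted p = 0.00865)), and SKP1, a subunit of the SCF ligase (0.38 (SE 0.12, adjusted p = 0.0423)). Its largest falls were E2F2 (-0.94 (SE 0.11, adjusted p = 7.27e-05)) and CDKN2A, the locus of p16 (-0.77 (SE 0.16, adjusted p = 0.00437)). MDM2, which rose in A549, fell with P. chinensis in Huh7 by 0.38 (SE 0.08, adjusted p = 0.00637), while its response in A549 minus that in Huh7 was 2.41 (SE 0.10, adjusted p = 1.86e-12). The only listed gene to pass with B. chinense was the inhibitor CDKN2B, at -0.46 (SE 0.09, adjusted p = 0.0205).

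With P. umbellatus in Huh7 the largest rises were RB1 (0.36 (SE 0.11, adjusted p = 0.0231)) and the SCF scaffold CUL1 (0.35 (SE 0.08, adjusted p = 0.00781)), and the largest falls were CDKN2A (-1.14 (SE 0.17, adjusted p = 0.000929)) and E2F2 (-0.72 (SE 0.11, adjusted p = 0.00108)). After the GC and length correction RB1 was at 0.01 (adjusted p = 0.891), CUL1 at 0.19 (adjusted p = 0.062), E2F2 at -0.35 (adjusted p = 0.0545) and CDKN2A at -0.61 (adjusted p = 0.00167), so that of these 4 CDKN2A alone passed there, and 1 listed gene rose in place of 6. Over all 13875 genes tested, 1577 rose in place of 2674. Without replicate 2, RB1, CUL1, CDKN2A and E2F2 passed at 0.19, 0.31, -0.92 and -0.68.

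The genes most like CDKN1A and CCNE2 were taken as those with the smallest root mean square difference over the 6 log2 fold changes against control, among 9950 genes with at least 50 counts on average in both lines. For CDKN1A the 5 closest included BTG2, an antiproliferative gene (0.24), CPA4 (0.32), TMOD1 (0.55) and TIPARP (0.55). BTG2 changed by 2.37, 2.04 and 1.82 in A549 and by 0.94, 0.54 and 0.18 in Huh7 for P. chinensis, B. chinense and P. umbellatus. For CCNE2 they were PDS5B, a cohesin regulator (0.09), C18orf54 (0.10), HAUS6, an augmin subunit (0.10), LGR4 (0.12) and G2E3 (0.12). These distances depend on the size of the changes, so those of CDKN1A and CCNE2 are not compared. The CCNE2 match includes its Huh7 change with P. umbellatus, 0.58. That change was 0.28 without replicate 2 and 0.21 with the GC and length correction. PDS5B changed by -0.71, -0.62 and -0.52 in A549 and by 0.01, 0.24 and 0.59 in Huh7. These are descriptions of likeness over 6 comparisons that share controls within a line.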

How the data were processed

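RNA was sequenced from 24 libraries of A549 and Huh7 cells (total RNA, ribosomal RNA removed, stranded kit). Per the labels and the study's methods, the authors ran FastQC and kallisto on the GRCh38.p13 transcripts. The deposited table holds estimated counts per gene as whole numbers for protein-coding genes above an average count of 5. How transcripts were summed and rounded is not given in the sources used here. Genes were matched to symbols and to GENCODE 44 canonical transcripts by Ensembl ID (14584 of 14585).

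Samples were grouped by the labelled cell line and treatment. Herb comparisons used edgeR 4.0.16 in R 4.3.3: genes with a mean above 5 counts in the line, TMM scaling, a quasi-likelihood fit over the 12 libraries of the line, a prior count of 2, and Benjamini-Hochberg adjustment over all genes tested with a threshold of 0.05. Standard errors were taken from the F statistic. Comparisons between lines used the 24 libraries and their own TMM scaling, as did levels per kilobase. Ratios were compared with exact permutation tests, two-sided. The alternatives were DESeq2 1.42.0, limma 3.58.1 voom with sample weights, RLE and upper quartile scaling, other count filters, the 6 libraries compared, a replicate block and leaving out each library. A spline correction for GC content and length (5 degrees of freedom each) was added after seeing the data. The replicate numbers did not pair the libraries: deviations of same-numbered libraries correlated between -0.0619 and 0.0515. The fits were tested on simulated data. Intervals cover the spread between libraries, and depth limits the genes with few counts most.

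The members and gene lists were chosen with earlier results of these data known. All members were named in each herb comparison, the passing ones in the other comparisons, and from the pathway list the 2 largest rises and 2 largest falls among genes that passed, plus the group counts. A gene of the pathway list that enters its counts and medians, and a gene among those most like CDKN1A, are not reported here by name. The markers of leukocytes, fibroblasts and endothelium were 7 genes, of which 5 had a row.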

Additional observations from a re-analysis of the deposited data

Results flagged for a closer look

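For 17 member results the response of A549 minus that of Huh7 passed the edgeR quasi-likelihood test of the difference itself (log2 scale, adjusted p below 0.05, 3 libraries per group). With P. chinensis the differences were 1.87 for CDKN1A, 0.66 for CCND1, 0.63 for CCNE1, -0.48 for CDKN1B, -0.64 for CDK2 and -0.85 for CCNE2. With B. chinense they were 1.99 for CDKN1A, 0.49 for CCND1, -0.68 for CDKN1B and -0.76 for CDK2. With P. umbellatus they were 2.09 for CDKN1A, 0.52 for CCND1, 0.64 for CCNE1, -0.47 for CDKN1B, -0.59 for CDK6, -0.68 for CDK2 and -0.90 for CCNE2. The herbs share control libraries within a line. The P. umbellatus values rest on the Huh7 comparison in which the change followed GC content, and its part in them was not tested beyond the corrected values: with the correction CCNE1 was 0.47 (adjusted p = 0.132) and CCNE2 was -0.42 (adjusted p = 0.162), and the other 5 genes passed.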

How the results depend on the processing

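All 22 member calls of the A549 herb comparisons kept their direction and passed in each of the 22 alternatives. In Huh7, 2 of 3 calls with P. chinensis did and 1 of 5 with P. umbellatus did. Counts moved as follows. With the 6 libraries compared alone, members that differed between P. chinensis and B. chinense went from 1 to 0 in A549 and from 2 to 4 in Huh7, members up and down with P. umbellatus in Huh7 from 2 to 1 and from 3 to 0, and listed genes in Huh7 from 2 to 7 up with P. chinensis, from 1 to 4 down with B. chinense, and from 6 to 0 up and 5 to 3 down with P. umbellatus. With the GC and length correction, members that differed from P. umbellatus with P. chinensis went from 1 to 2 in A549 and from 3 to 5 in Huh7, those that differed from B. chinense in Huh7 from 2 to 5, members down in Huh7 from 2 to 4 with P. chinensis and from 3 to 1 with P. umbellatus, members up with B. chinense from 0 to 1, and listed genes from 2 to 4 up with P. chinensis, 1 to 2 down with B. chinense and 6 to 1 up with P. umbellatus. That correction also moved the calls over all 13875 genes tested in Huh7. Genes down went from 1451 to 2872 with P. chinensis and from 2464 to 1126 with P. umbellatus. Genes up with B. chinense went from 72 to 317. Between P. chinensis and B. chinense, genes higher went from 540 to 829 and genes lower from 543 to 1874. With voom, members in Huh7 went from 2 to 4 down with P. chinensis, 0 to 1 in each direction with B. chinense, 2 to 1 up with P. umbellatus and 2 to 4 between P. chinensis and B. chinense, and listed genes from 2 to 8 up with P. chinensis and 1 to 3 down with B. chinense. DESeq2 gave 4 listed genes up with P. chinensis and 2 down with B. chinense, and upper quartile scaling gave 4 up with P. chinensis. With the replicate block, listed genes up with P. chinensis in Huh7 went from 2 to 1 and CDK4 with P. umbellatus lost its call (adjusted p = 0.0583), and no other count of calls moved by over 1.5 times. The block together with the GC and length correction moved the same counts to the same values, except 0 members up with B. chinense in Huh7 and 4 that differed between P. chinensis and P. umbellatus in Huh7.

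Leaving out 1 library at a time, members that differed between P. chinensis and B. chinense ranged from 0 to 1 in A549 and from 1 to 4 in Huh7, those between P. chinensis and P. umbellatus in A549 from 0 to 1, members up in Huh7 from 0 to 1 with P. chinensis and 1 to 2 with P. umbellatus, members down with P. umbellatus from 1 to 3, and listed genes in Huh7 from 1 to 7 up with P. chinensis, 0 to 2 down with B. chinense, and 1 to 11 up and 4 to 9 down with P. umbellatus. Without replicate 2 of Huh7 given P. umbellatus, calls over all 13875 genes moved too. Genes up with P. chinensis went from 1450 to 2309 and genes down with B. chinense from 105 to 547. Genes lower with P. chinensis than with B. chinense went from 543 to 1562. The call of CCND3 with P. umbellatus in Huh7 turned from -0.55 to 0.0093 with the GC and length correction. It was also 0.0093 with the replicate block added. Changes that had not passed turned sign at values near 0: CDK6 with P. umbellatus in A549 was 0.0015 with upper quartile scaling and -0.0665 to 0.0022 with 1 library left out. In Huh7, CCNE2 with P. chinensis was -0.0459 and -0.0448 with the correction without and with the replicate block and -0.0172 to 0.0724 with 1 library left out. CDK2 with B. chinense was 0.00087 with DESeq2, 0.0014 with RLE, 0.0216 with upper quartile scaling, 0.00044 with 6 libraries, and 0.0023 and 0.00042 with the correction without and with the block, and -0.0366 to 0.0388 with 1 library left out. CCNE1 with P. umbellatus was -0.15 with voom and -0.18 to 0.14 with 1 library left out, CDKN1A with P. umbellatus was -0.0508 to 0.32, and CCND3 with B. chinense -0.0114 to 0.13. The causes were not tested.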

Other observations

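Before treatment, of 34 genes of the wider G1 list tested in both lines, 11 were higher and 11 lower in A549 controls, in a comparison where 68.7% of all genes differed. The largest differences were SKP2 (-2.13) and CDC25A (-2.03), which were lower in A549, and CDKN3 (0.86) and RBL2 (0.85), which were higher (log2 scale, edgeR quasi-likelihood test, adjusted p = 7.85e-14, 3.92e-15, 4.76e-05 and 1.71e-06). In the tests of the response of A549 minus that of Huh7, 4 listed genes passed above 0 and 12 below with P. chinensis. The counts were 1 and 12 for B. chinense and 2 and 13 for P. umbellatus, of 34 tested. Of all 12924 genes tested, 19.6%, 11.6% and 34.4% passed in either direction for the herbs in that order. MDM2 gave the largest positive value with each herb (2.41, 1.74 and 1.30), and the largest negative values were -1.41 for CDKN3 under P. chinensis, and -1.09 and -1.36 for CCNA2 under the other herbs.

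Compared directly in A549, P. chinensis differed from B. chinense in 4 listed genes of 34 tested, where 1.45% of all genes differed. MDM2 was higher by 0.37 on the log2 scale, and CKS1B, CDK1 and CCNA2 were lower by values of -0.39, -0.37 and -0.36. From P. umbellatus it differed in 6 listed genes, where 3.01% of all genes differed. MDM2 was higher by 0.56, and DTL (-0.59) and E2F1 (-0.56) were the lowest. In Huh7, P. chinensis exceeded B. chinense most in CDKN2B (0.71) and CKS2 (0.61) and was lowest in E2F2 (-0.72) and SKP2 (-0.56). Among the 37 listed genes tested 2 were higher and 6 lower, where 7.81% of all genes differed.

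The ratio of CDKN1A to CDK2 per kilobase, an inhibitor against its target kinase, was 1.15 ± 0.17 (SD, n = 3) in A549 controls and 14.5 ± 0.53, 10.9 ± 1.29 and 9.30 ± 0.54 for P. chinensis, B. chinense and P. umbellatus. The Huh7 values were 0.143 ± 0.03 in controls and 0.321 ± 0.04, 0.199 ± 0.0068 and 0.167 ± 0.05 with the herbs in the same order.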
